A study of Mus musculus with 6 samples.

Results

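The genes described here are 54 mouse genes of homologous recombination, the Fanconi anaemia pathway, mismatch repair, nucleotide excision repair and base excision repair, listed by name and looked up by exact gene symbol in a table of 15168 genes. Of the 54, 53 had a row in the table, comprising 19 genes of homologous recombination, 10 of the Fanconi anaemia pathway, 4 of mismatch repair, 11 of nucleotide excision repair and 9 of base excision repair. Ung, a uracil glycosylase, was not analysed here. The RNA came from CD45+CD11b+F4/80+CD64+ macrophages sorted from the wounds of wild-type C57BL/6J female mice on Day 3, when each mouse had carried 2 full-thickness wounds of 10 mm on its back. The young mice were 12 weeks old and the aged mice 24 months old, the labels name no other treatment for either age, and each age gave 3 samples, named sets A, B and C. No source used here says which mice gave which sample, so p-values measure only the spread between these samples, which may be technical. The sort had no step against Ly6G, the surface marker of neutrophils.

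Totals per sample ran from 15270103 to 17927483 expected counts, and 1 count was worth 0.0553 to 0.0701 CPM, the depth-scaled count that is the unit of every level below. The 4 genes of the sort were expressed in every sample. Ptprc (CD45) was at 195 to 229 CPM in young samples and 190 to 308 CPM in aged ones, and Fcgr1 (CD64) at 422 to 467 and 487 to 514 CPM. Itgam (CD11b) rose from 335 to 402 CPM to 702 to 822 CPM (log2 fold change 0.99, edgeR adjusted p = 0.00735), and Adgre1 (F4/80) fell from 290 to 357 CPM to 172 to 241 CPM (log2 fold change -0.69, edgeR adjusted p = 0.0292). The macrophage gene Lyz2 was at 24160 to 38840 CPM in young and 16240 to 21390 CPM in aged samples. One aged sample stood apart for skin genes: 8 keratinocyte genes summed to 138 CPM in aged set B and to 0.727 to 2.17 CPM in the other 5 samples. Fibroblast genes summed to 120 CPM in the same sample and to 13.2 to 41.1 CPM in the others.

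A break across both DNA strands can be repaired by homologous recombination, in which the ends are trimmed and a strand exchange recombinase, loaded by mediators such as BRCA2 and PALB2, pairs them with an intact sister copy. The Fanconi anaemia pathway unhooks crosslinks between the strands by tagging FANCD2 and FANCI with ubiquitin, mismatch repair corrects copying errors, nucleotide excision repair cuts out bulky lesions such as ultraviolet photoproducts, and base excision repair replaces single damaged bases through a glycosylase, the endonuclease APEX1 and DNA polymerase beta. Recombination and mismatch repair act mostly in cells that copy their DNA, whereas both excision pathways also serve resting cells, among them macrophages that meet the oxidants of a fresh wound.

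Of the base excision repair genes, Apex1, Parp1 and Polb fell in the aged macrophages and the glycosylase gene Smug1 rose. Outside base excision repair Rad51ap1, of recombination, and Fance, of the Fanconi core complex, fell. The fall ranged from an aged level of 0.157 of the young level for Rad51ap1 to 0.549 for Polb. In bulk RNA, fewer cells of a type and less RNA of a gene per cell cannot be told apart. The remaining genes that could be tested, including all tested genes of mismatch and of nucleotide excision repair, did not pass the threshold of an adjusted p of 0.05 in edgeR's quasi-likelihood test.

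Across all 53 genes of the table, whether or not abundant enough to be tested, every aged sample lay below every young sample for 19 genes (35.8%), against 16.5% of the 15168 genes deposited. Every aged sample lay above every young sample for 2 genes (3.77%), against 16.6% of the deposited genes. The ages overlapped for the other 32 genes (60.4%). Those 2 genes were Smug1 and Rad51c.

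A test was possible for 45 of the 53 genes, those that reached 0.632 CPM in at least 3 samples. For this step alone CPM was taken on plain sample totals, without the scaling between samples (TMM) of the levels given elsewhere. Of the 45, 32 reached that level in all samples of both ages and 3 through a mixture. Another 10 reached it through the young samples alone, that is in all young but not all aged samples (Rad51ap1, Xrcc3, Brca1, Palb2, Blm, Atm, Fanca, Fancm, Ube2t and Nthl1). A gene admitted through its young samples is more likely to show a lower aged level, so the counts over tested genes are given as description. In that set 4 genes were lower in aged with an adjusted p under 0.05 and over 2-fold, against 4.20% of 11878 genes tested, and 1 was higher, against 4.59%. Without the fold threshold 5 were lower, against 7.97% of all genes, and 1 was higher, against 9.73%. At an unadjusted p under 0.05 there were 14 lower (16.5% of all genes) and 2 higher (18.1% of all genes). The log2 fold change, aged minus young, was negative for 34 genes and positive for 11, with a median of -0.39, beside -0.02 over all genes tested.

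**Figure D1:**
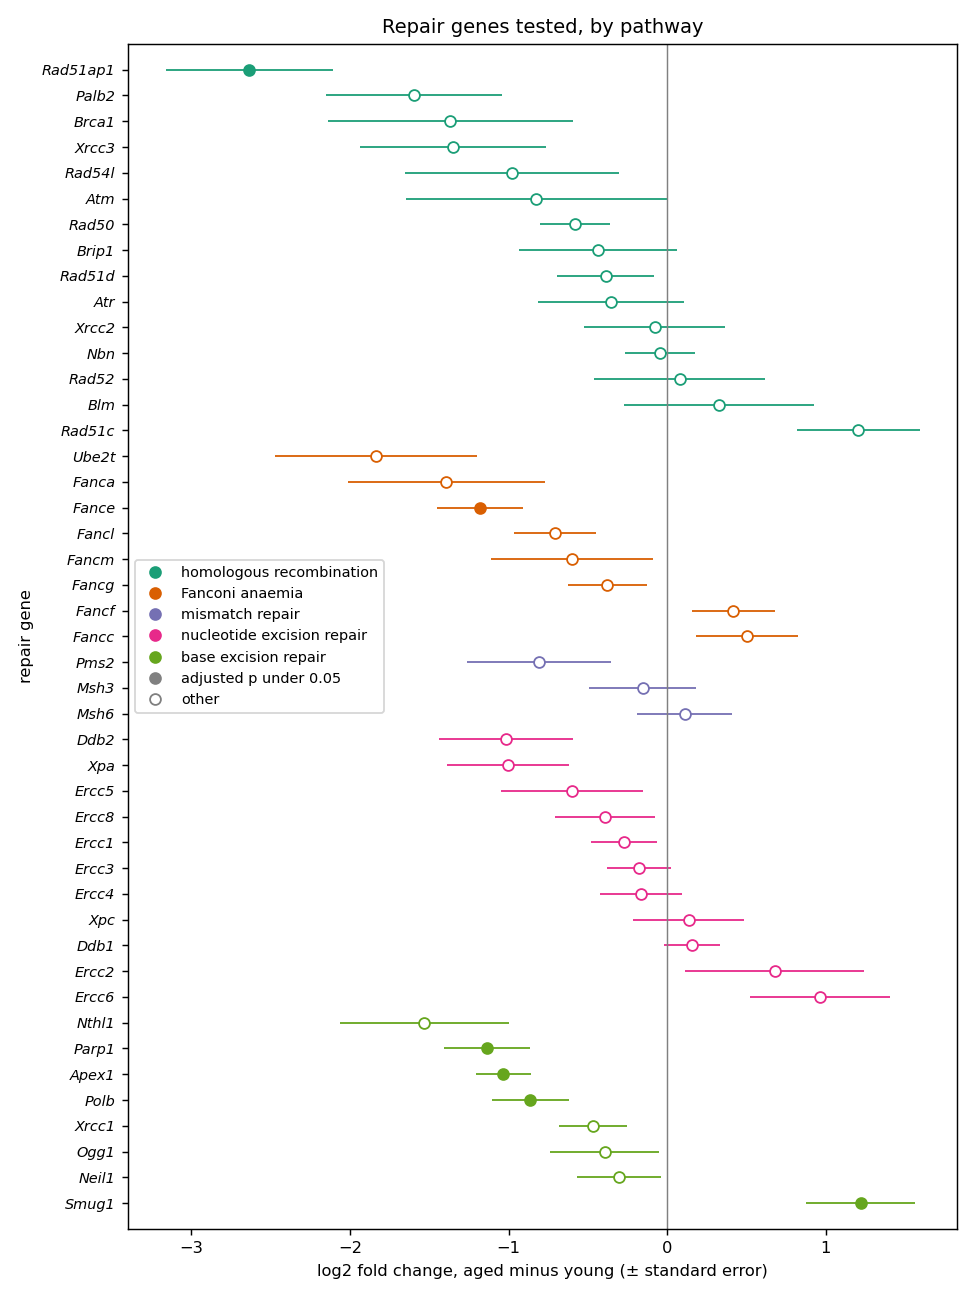
The log2 fold change of each of the 45 tested repair genes (horizontal axis, aged minus young, with its standard error as a line), grouped and coloured by pathway, filled where the adjusted p was under 0.05. The filled points are Rad51ap1 at -2.63, Fance at -1.18, Parp1 at -1.14, Apex1 at -1.03, Polb at -0.86 and Smug1 at 1.22.

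The promoters of several of these genes carry the letters recognised by E2F, the family of transcription factors that switches on genes at the start of DNA replication. The letters searched were TTTCCCGC, TTTGGCGC, TTTCGCGC and TTTGCCGC on both strands, in RefSeq windows of GRCm38.p6 that run from 250 bases before to 50 bases after a start of transcription. A window was at hand for 43 of the 54 genes, and 7 of the 43 (16.3%) held at least 1 match, beside 4.7% of 8753 tested genes with a window and 2.6% of 27025 genes with a window. The 7 were Bard1, Brca2 and Rad51c of recombination, Fancg of the Fanconi core complex, Msh3 and Msh6 of mismatch repair, and Nthl1 of base excision repair. The stretches around the first match are shown for 5 of them, read 5′ to 3′ on the strand of the gene, because they let the letters be set beside the levels of the same genes below. The capitals mark the E2F letters. In Brca2 they stand in reverse complement, and in Msh3 2 matches on opposite strands overlap.
Bard1, chr1:71103144-71103211, minus strand: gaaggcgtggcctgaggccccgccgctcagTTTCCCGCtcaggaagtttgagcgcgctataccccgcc
Brca2, chr5:150522423-150522490, plus strand: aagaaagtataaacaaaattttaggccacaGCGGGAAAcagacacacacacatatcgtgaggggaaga
Fancg, chr4:43010316-43010383, minus strand: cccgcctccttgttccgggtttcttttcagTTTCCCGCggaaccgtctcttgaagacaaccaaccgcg
Msh3, chr13:92355164-92355235, minus strand: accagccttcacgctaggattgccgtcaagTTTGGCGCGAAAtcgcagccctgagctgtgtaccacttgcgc
Nthl1, chr17:24632520-24632587, plus strand: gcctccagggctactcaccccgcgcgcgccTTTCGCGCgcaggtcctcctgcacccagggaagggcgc

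Matches lay 209 bases before the RefSeq start in Bard1, 168 in Brca2, 52 in Fancg and 132 in Nthl1, and the first of the Msh3 pair lay 202 bases before it. The RefSeq start of Bard1 lies inside the gene as GENCODE M21 gives it, whose own start, at 71103147, is nearer to the match. Those of Msh6 and of 1 Rad51c window lay after the start. No match was found in the windows of Rad51ap1, Fance, Apex1, Parp1 or Smug1, 5 of the 6 genes that passed the test. Polb, the other one, has no entry. The Smug1 window, at 103163235 to 103163534, lies inside the gene, so the bases around its outer end at 103167093 were not searched. Of the 7 genes with the letters, Bard1 and Brca2 were too low to test and the other 5 did not pass in edgeR. Rad51c was higher in every aged than in every young sample, Nthl1 was lower, and Bard1, Brca2, Fancg, Msh3 and Msh6 overlapped between the ages. The letters of the cell cycle genes homology region (TTTGAA or TTCGAA, both strands) are found in genes of late division. They occurred for 5 of the 43 genes with a window (11.6%), beside 16.8% of tested genes and 21.7% of all genes with a window. The 5 were Apex1, Atr, Bard1, Ercc5 and Rad51b. A match is a run of letters and not a bound site.

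Base excision repair held 4 of the 6 genes that passed the test. Its 9 genes summed to 111 to 144 CPM in the young and to 68.1 to 78.7 CPM in the aged samples, with no overlap between the ages. Of 8 tested genes, 3 fell (Apex1, Parp1 and Polb) and 1 rose (Smug1), beside 7.97% and 9.73% of all genes tested. The median log2 fold change was -0.67.

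Apex1, the endonuclease that cuts the DNA backbone at a site whose base has been removed, lies on chromosome 14 at 50924968 to 50927140 of mm10, on the plus strand, and was the most abundant gene of the pathway per length of transcript, at 21.9 CPM per kb. Its levels were 46.5, 34.4 and 44.5 CPM in young sets A, B and C and 21.0, 20.9 and 19.3 CPM in aged sets A, B and C. The aged samples lay close to one another and well below the lowest young sample. The mean went from 41.8 ± 6.44 CPM (SD, n = 3) to 20.4 ± 0.938 CPM (SD, n = 3), a log2 fold change of -1.03 with a standard error of 0.175 (edgeR adjusted p = 0.00735). Over its exons Apex1 shares 877 bases (61.7%) with Pip4p1, a gene of the opposite strand, and the library kit does not mark strand, so that reads from the shared bases cannot be told apart. Pip4p1 itself was at 52.0 ± 12.8 CPM in the young and 61.0 ± 9.11 CPM in aged samples (SD, n = 3 each), a log2 fold change of 0.23 (edgeR adjusted p = 0.452).

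Polb encodes the polymerase that fills the gap APEX1 leaves, and lies on chromosome 8 at 22628126 to 22653436, on the minus strand. Young sets A, B and C had 19.1, 32.2 and 33.8 CPM, and aged sets A, B and C had 12.6, 18.1 and 16.1 CPM. The lowest young sample, set A, only just exceeded the highest aged sample, so the separation of the ages was narrow. Polb fell by 0.86 on the log2 scale (standard error 0.243, edgeR adjusted p = 0.0367), which is less than 2-fold. Apex1 and Polb together summed to 65.5 to 78.3 CPM in the young and 33.6 to 39.0 CPM in the aged samples.

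Parp1 encodes the polymerase that senses strand breaks and marks them with chains of ADP-ribose, and lies on chromosome 1 at 180568924 to 180601255, on the plus strand. It was at 21.4, 48.1 and 37.2 CPM in young sets A, B and C and at 14.2, 18.7 and 15.6 CPM in aged sets A, B and C. Here too young set A was the lowest of its age and nearest to the aged samples, and young set B the highest. Parp1 fell by 1.14 on the log2 scale (standard error 0.273, edgeR adjusted p = 0.0218). For Xrcc1, the scaffold that PARP1 recruits to a break, the aged samples at 7.71 to 9.64 CPM lay below the young samples at 10.6 to 13.7 CPM, with a log2 fold change of -0.47 that did not pass (edgeR adjusted p = 0.148).

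Of the 4 tested glycosylases, which recognise and remove the damaged base, 1 passed the test. Smug1, a glycosylase for uracil and oxidised pyrimidines on chromosome 15 at 103153290 to 103167093, minus strand, was at 2.54, 1.64 and 1.26 CPM in young sets A, B and C and at 4.06, 4.65 and 4.08 CPM in aged sets A, B and C. All 3 aged samples lay above all 3 young samples, and the mean rose from 1.81 ± 0.662 to 4.26 ± 0.335 CPM (SD, n = 3 each), a ratio of 2.35. Its log2 fold change was 1.22 with a standard error of 0.344 (edgeR adjusted p = 0.0364), the highest of the 45 tested repair genes.

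Nthl1, a glycosylase for oxidised pyrimidines on chromosome 17 at 24632680 to 24638838, plus strand, had the lowest log2 fold change of the pathway. Its levels were 2.10, 4.81 and 2.91 CPM in young sets A, B and C and 0.350, 1.27 and 1.73 CPM in aged sets A, B and C, without overlap. The log2 fold change of -1.53 had a standard error of 0.535 and did not pass (edgeR adjusted p = 0.0715; DESeq2 adjusted p = 0.0399). Ogg1, which removes oxidised guanine, and Neil1, which removes oxidised pyrimidines, overlapped between the ages, with log2 fold changes of -0.39 and -0.30. Ogg1 shares 10.6% of its exonic bases with Camk1 of the opposite strand, which was at 180 ± 49.7 CPM in young samples and 95.4 ± 17.3 CPM in aged ones (SD, n = 3 each) and fell (log2 fold change -0.91, edgeR adjusted p = 0.0249). Mutyh, which removes adenine placed opposite oxidised guanine, was too low to test, at 0.132 to 0.939 CPM in the young and 0.0701 to 0.191 CPM in aged samples. The 5 measured glycosylases summed to 13.2 to 18.9 CPM in the young and 12.6 to 14.0 CPM in aged samples, ranges that overlap.

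**Figure D2:**
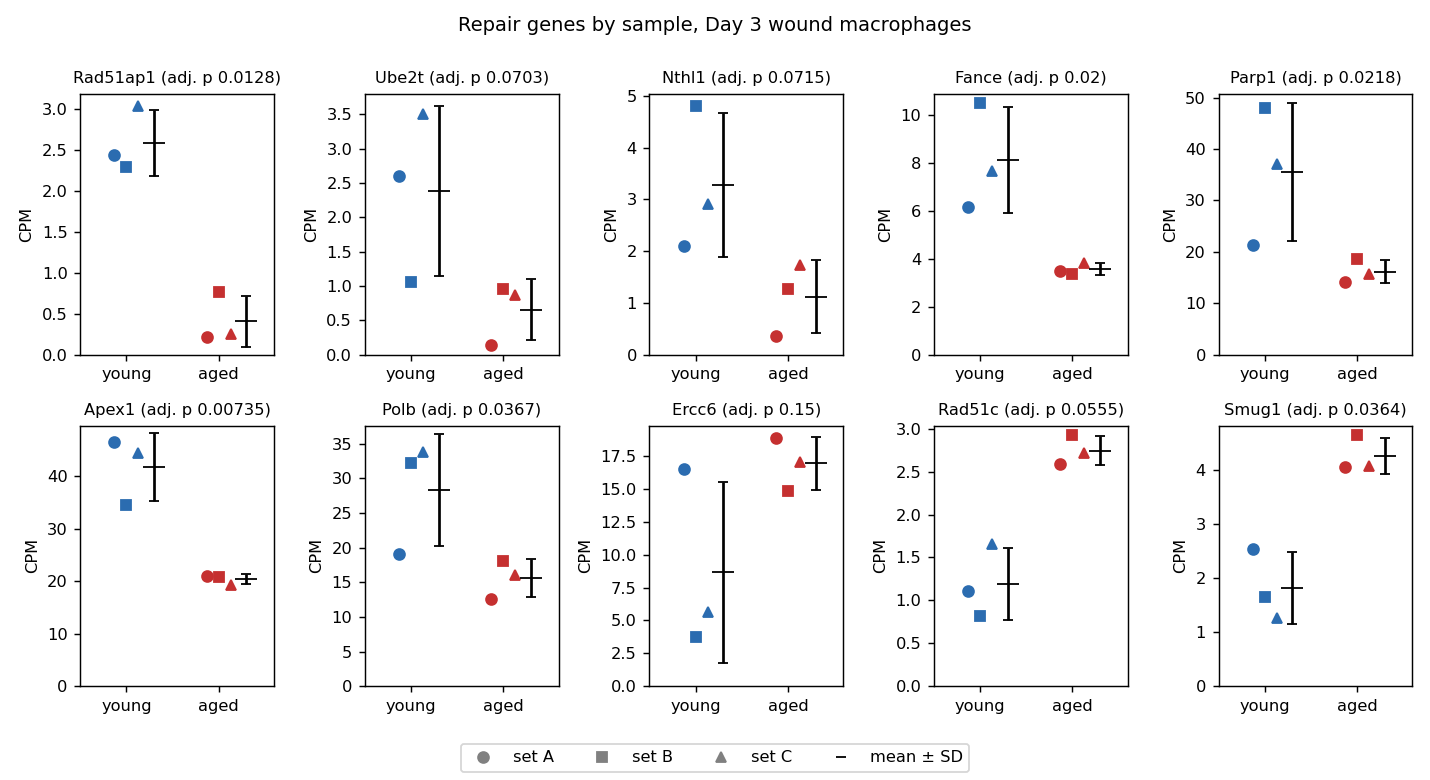
Levels in CPM (vertical axes, each from 0) of 10 repair genes in the 3 young (blue) and 3 aged (red) samples, with the set as the marker shape and mean ± SD beside the points. Apex1 runs from 34.4 to 46.5 CPM in the young and 19.3 to 21.0 CPM in aged samples, Smug1 and Rad51c are higher in all 3 aged samples, and young set A of Ercc6, at 16.5 CPM, lies among the aged samples.

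In the Fanconi anaemia pathway the sum of 10 genes was 34.0 to 46.9 CPM in the young and 27.2 to 29.2 CPM in aged samples. Of 8 tested genes, 3 of them admitted through the young samples alone, 1 fell and none rose, beside 7.97% and 9.73% of all genes. The median log2 fold change was -0.66, and it was -0.39 where at least 10 counts were required in every sample. At an unadjusted p under 0.05 edgeR gave 4 lower and 0 higher genes, beside 16.5% and 18.1% of all genes. At an adjusted p of 0.05 neither DESeq2 nor limma-voom gave a higher gene. Fance, a subunit of the core complex that forms the ubiquitin ligase, lies on chromosome 17 at 28313519 to 28326573, on the plus strand. Young sets A, B and C had 6.14, 10.5 and 7.66 CPM, and aged sets A, B and C had 3.50, 3.38 and 3.83 CPM. The aged samples were tightly grouped at 3.57 ± 0.234 CPM (SD, n = 3) below the young mean of 8.10 ± 2.21 CPM (SD, n = 3), and the log2 fold change was -1.18 with a standard error of 0.274 (edgeR adjusted p = 0.02).

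The other core complex subunits did not pass the test in edgeR. Fancl, the catalytic ubiquitin ligase, was at 9.68 to 16.2 CPM in the young and 6.18 to 9.25 CPM in aged samples, with no overlap and a log2 fold change of -0.71 (edgeR adjusted p = 0.0795); it shares 13.7% of its exonic bases with Vrk2, whose log2 fold change was -0.68. Fanca and Fancm, the subunit that binds branched DNA, were lower in all aged samples with log2 fold changes of -1.39 and -0.60, and Fancg, at -0.38, overlapped. Fanca shares 10.5% of its exonic bases with Zfp276 of the opposite strand. Its log2 fold change rests on young set B, at 2.76 CPM beside 0.609 and 0.925 CPM in young sets A and C, and was -0.48 without it. Of these 4, Fancl passed in limma-voom (adjusted p = 0.0224). Fancc, a core subunit on chromosome 13 at 63285043 to 63497279, minus strand, had the highest log2 fold change of the pathway at 0.50 (standard error 0.323, edgeR adjusted p = 0.297). It was at 2.88, 3.40 and 2.05 CPM in young sets A, B and C and at 3.15, 4.84 and 3.83 CPM in aged sets A, B and C, where young set B exceeded aged set A. Fancf, the adaptor subunit on chromosome 7 at 51860577 to 51862268, minus strand, had the highest level per length of the pathway at 3.09 CPM per kb. Its levels were 5.48, 3.81 and 4.10 CPM in young sets A, B and C and 5.96, 5.35 and 6.61 CPM in aged sets A, B and C, so that young set A exceeded aged set B (log2 fold change 0.42, edgeR adjusted p = 0.281).

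Ube2t, the conjugating enzyme that hands ubiquitin to FANCD2 and FANCI, lies on chromosome 1 at 134962565 to 134974163, on the plus strand, and had the lowest log2 fold change of the pathway. It was at 2.60, 1.06 and 3.50 CPM in young sets A, B and C and at 0.140, 0.955 and 0.865 CPM in aged sets A, B and C. Young set B lay only just above aged set B. The log2 fold change of -1.84 had a standard error of 0.638 (edgeR adjusted p = 0.0703; DESeq2 adjusted p = 0.0383). Its substrates were too low to test. Fanci was at 0.3303 to 0.411 CPM in young samples and at 0, 0 and 0.247 CPM in aged sets A, B and C, and Fancd2 was at 0.0661 to 0.293 CPM in the young and 0 to 0.255 CPM in aged samples. Fanci shares 16.0% of its exonic bases with Polg of the opposite strand.

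The 19 genes of homologous recombination summed to 44.1 to 49.3 CPM in the young and 32.4 to 41.7 CPM in aged samples. Of 15 tested genes 1 fell (Rad51ap1) and none rose, beside 7.97% and 9.73% of all genes. Through the young samples alone, 6 of the 15 had reached the level for testing. The median log2 fold change was -0.44, and it was -0.073 where at least 10 counts were required in every sample. Unadjusted p-values under 0.05 in edgeR were 4 lower and 1 higher, beside 16.5% and 18.1% of all genes. DESeq2 gave no higher gene at an adjusted p of 0.05 and limma-voom gave 1, Rad51c, and also a further lower one, Palb2. Rad51ap1, which helps the recombinase join strands, lies on chromosome 6 at 126923050 to 126939588, on the minus strand, and had the lowest log2 fold change of all tested repair genes. Young sets A, B and C had 2.43, 2.29 and 3.04 CPM (44, 39 and 46 counts), and aged sets A, B and C had 0.210, 0.764 and 0.247 CPM (3, 12 and 4 counts). Every young sample lay well above the highest aged sample, set B. The log2 fold change was -2.63 with a standard error of 0.528 (edgeR adjusted p = 0.0128).

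The strand exchange motors Rad54l and Rad54b, which open chromatin around the joined strands, varied within each age. Rad54l was at 2.88, 0.528 and 3.10 CPM in the young and 0.490, 1.97 and 0.803 CPM in aged sets A, B and C, with young set B among the aged values (log2 fold change -0.98, edgeR adjusted p = 0.331). Rad54b was too low to test and also had its lowest young value, 0.117 CPM, in set B.

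None of the 4 tested paralogs of the strand exchange recombinase, which stabilise its filament, passed the test in edgeR (1 lower and 1 higher at an unadjusted p under 0.05). Rad51c, on chromosome 11 at 87376645 to 87404955, minus strand, was at 1.11, 0.821 and 1.65 CPM in young sets A, B and C and at 2.59, 2.93 and 2.72 CPM in aged sets A, B and C. All aged samples lay above all young samples, yet the log2 fold change of 1.21 (standard error 0.388) missed the threshold in edgeR (adjusted p = 0.0555). It also missed it in DESeq2 (adjusted p = 0.0502), and passed in limma-voom (adjusted p = 0.0411). With at least 10 counts required in every sample, Rad51c did pass in edgeR (adjusted p = 0.0322). Rad51b was lower in every aged sample at 0.0637 to 0.309 CPM, against 0.352 to 0.595 CPM in young samples, on 1 to 9 counts a sample, and was not tested. Rad51d, Xrcc2 and Xrcc3 overlapped between the ages, with log2 fold changes of -0.39, -0.08 and -1.35. The 5 paralogs summed to 6.64 to 9.25 CPM in the young and 7.13 to 7.97 CPM in aged samples.

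Among the mediators, Palb2, which links BRCA1 to BRCA2, and Brca1, the ubiquitin ligase that promotes end trimming, were lower in every aged sample. Palb2 was at 0.940, 1.29 and 1.52 CPM in the young and 0.210, 0.318 and 0.679 CPM in aged sets A, B and C (log2 fold change -1.60, edgeR adjusted p = 0.0706; limma-voom adjusted p = 0.0478). Brca1 was at 0.763 to 1.19 CPM in the young and 0 to 0.679 CPM in aged samples (log2 fold change -1.37, edgeR adjusted p = 0.236). Leaving out 1 sample moved the log2 fold change of Brca1 between -2.05 and -0.77. Rad52, which anneals single strands, overlapped between the ages and had its highest value, 3.57 CPM, in aged set B. Brca2, which loads the recombinase, at 0.350 to 1.21 CPM over the 6 samples, and Bard1, the partner of BRCA1, at 0.0701 to 0.494 CPM, were too low to test and overlapped.

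Rad50 and Nbn encode subunits of the complex that holds and trims broken ends. Rad50 was at 9.18, 10.9 and 8.59 CPM in the young and 6.10, 7.13 and 5.93 CPM in aged sets A, B and C, with no overlap (log2 fold change -0.58, edgeR adjusted p = 0.0921). Nbn, on chromosome 4 at 15957925 to 15992590, plus strand, had the highest level per length of the recombination genes at 5.76 CPM per kb. It was at 11.8, 16.9 and 15.7 CPM in the young and 11.5, 15.03 and 16.5 CPM in aged sets A, B and C, which overlap almost completely, and its log2 fold change was -0.05 with a standard error of 0.22. The damage kinases Atm and Atr and the helicases Blm and Brip1 overlapped between the ages, with log2 fold changes from -0.82 for Atm to 0.33 for Blm. Leaving out 1 sample moved Atm between -2.25 (without aged set B) and -0.27 (without aged set A), and Blm between -0.22 (without aged set A) and 1.02 (without young set A).

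**Figure D3:**
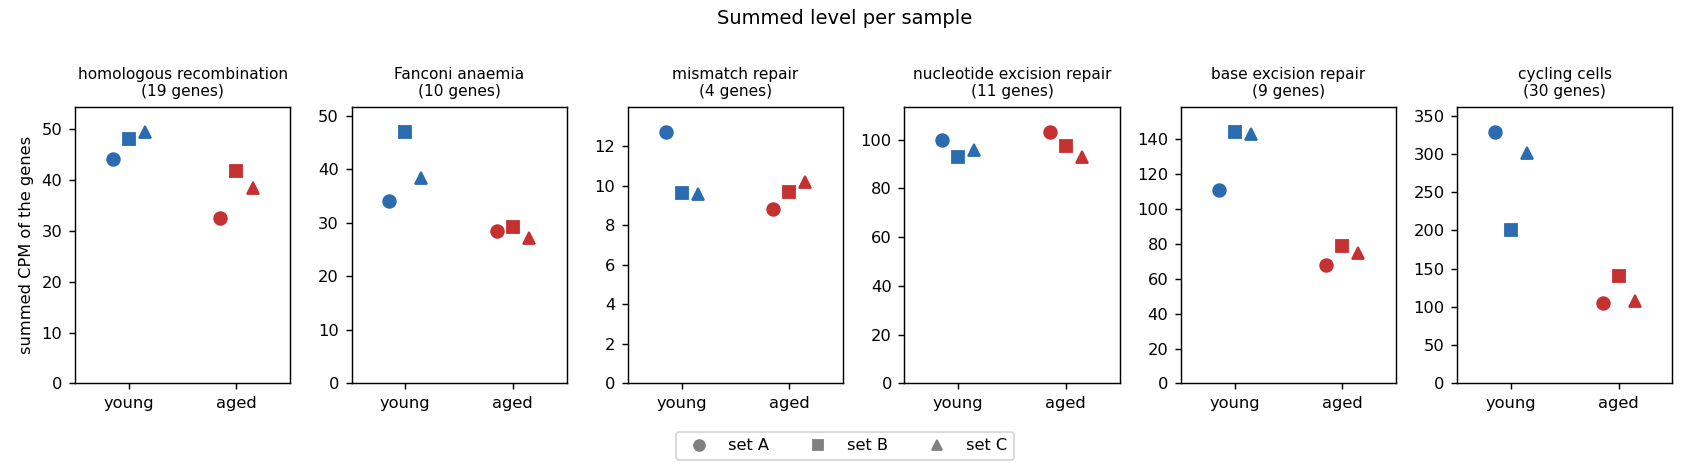
Summed CPM (vertical axes, each from 0) of the genes of each repair pathway and of 30 genes of cycling cells in every sample, by age and set. The ages do not overlap for recombination, Fanconi anaemia, base excision repair and cycling genes, and they overlap for mismatch repair (8.83 to 12.7 CPM over the 6 samples) and nucleotide excision repair (92.8 to 103 CPM).

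Nucleotide excision repair overlapped between the ages in the summed level of its 11 genes, which was 92.8 to 103 CPM over the 6 samples. All 11 were tested and none passed in edgeR or DESeq2. At an unadjusted p under 0.05 in edgeR 2 were lower (Xpa and Ddb2), beside 16.5% of all genes. In limma-voom 1 lower gene, Xpa, and 1 higher gene, Ercc6, passed. The median log2 fold change was -0.18. Ddb1, the adaptor of the ubiquitin ligase that finds photoproducts, lies on chromosome 19 at 10605327 to 10629820, on the plus strand, and was the most abundant per length at 5.47 CPM per kb. It was at 35.2, 28.2 and 36.1 CPM in the young and 34.4, 42.9 and 33.5 CPM in aged sets A, B and C, overlapping, and its log2 fold change was 0.16 (standard error 0.178).

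Its partner Ddb2, the subunit that touches the lesion, lies on chromosome 2 at 91211572 to 91236983, on the minus strand, and had the lowest log2 fold change of the pathway, -1.02 (standard error 0.421, edgeR adjusted p = 0.116). Young sets A, B and C had 1.49, 2.29 and 1.52 CPM, and aged sets A, B and C had 1.05, 0.828 and 0.741 CPM, without overlap. Ddb2 shares 23.8% of its exonic bases with Acp2, whose level is far higher. Xpa, the scaffold that verifies the lesion, was at 5.03 to 9.27 CPM in the young and 1.72 to 4.62 CPM in aged samples (log2 fold change -1.003, edgeR adjusted p = 0.0921). Xpc, the general damage sensor, overlapped between the ages (log2 fold change 0.14).

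Ercc6, which encodes the CSB protein that reads RNA polymerase stalled at a lesion, lies on chromosome 14 at 32513521 to 32580991, on the plus strand, and had the highest log2 fold change of the pathway. It was at 16.5, 3.76 and 5.68 CPM in young sets A, B and C and at 18.9, 14.9 and 17.1 CPM in aged sets A, B and C. Young set A stood with the aged samples and apart from both other young samples. The log2 fold change of 0.97 had a standard error of 0.441 (edgeR adjusted p = 0.15), and leaving out young set A raised it to 1.86 (edgeR adjusted p = 0.00244). Without young set B it was 0.61 (edgeR adjusted p = 0.349), and without young set C it was 0.74 (edgeR adjusted p = 0.388). Ercc8, which encodes its partner CSA, had a log2 fold change of -0.39. The helicases of the opening complex, Ercc2 and Ercc3, were at 0.68 and -0.18, and the nuclease genes Ercc1, Ercc4 and Ercc5 at -0.27, -0.16 and -0.60. Of these 6 genes the ages were separate for Ercc3 alone, at 9.29 to 11.6 CPM in the young and 9.04 to 9.25 CPM in aged samples. None of the 6 passed the test in edgeR, DESeq2 or limma-voom. Leaving out 1 sample moved the log2 fold change of Ercc5 between -1.19 and -0.27, and that of Ercc4 between -0.32 and -0.02.

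In mismatch repair the 4 genes summed to 9.58 to 12.7 CPM in the young and 8.83 to 10.2 CPM in aged samples. None of 3 tested genes passed in edgeR, DESeq2 or limma-voom, 0 had an unadjusted p under 0.05 in edgeR, and the ages overlapped for each. Msh6, whose protein recognises single mismatches, lies on chromosome 17 at 87975062 to 87990893, on the plus strand, and had both the highest level per length (1.26 CPM per kb) and the highest log2 fold change (0.11, standard error 0.299) of the pathway. Its levels were 6.47, 3.70 and 5.62 CPM in the young and 4.27, 6.94 and 5.81 CPM in aged sets A, B and C. Msh3, whose protein recognises small loops, had a log2 fold change of -0.15. Pms2, which encodes the nicking subunit and lies on chromosome 5 at 143909964 to 143933969, plus strand, had the lowest, -0.81 (standard error 0.456, edgeR adjusted p = 0.236). It was at 2.27, 1.47 and 1.12 CPM in the young and 0.771, 0.764 and 1.24 CPM in aged sets A, B and C, where aged set C exceeded young set C. The log2 fold change of Pms2 was -0.48 without young set A and -1.07 without aged set C. Exo1, the exonuclease that removes the faulty strand, was at 0.830, 1.06 and 0.132 CPM in the young and 0, 0 and 0.556 CPM in aged sets A, B and C and was not tested.

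The 6 genes that passed depended on single samples to different extents. Apex1 kept an adjusted p under 0.05 in edgeR in 5 of 6 fits that left out 1 sample, and had 0.0521 without young set C. Rad51ap1 kept it in 4, with 0.0753 without young set C and 0.0564 without aged set C. For Fance it held in 3, with 0.0718, 0.0798 and 0.0633 without young set B, young set C and aged set C. Parp1 kept it in 2, with 0.0802, 0.093, 0.0571 and 0.0804 without young set B, young set C, aged set A and aged set C. For Polb the same 4 omissions gave 0.117, 0.158, 0.0949 and 0.107. Smug1 passed only without young set A, and the other 5 omissions gave 0.063 to 0.137. Every one of these fits kept the sign of the full fit, with log2 fold changes of -3.44 to -2.34 for Rad51ap1, -1.35 to -0.94 for Fance, -1.15 to -0.95 for Apex1, -1.40 to -0.85 for Parp1, -1.08 to -0.72 for Polb and 1.02 to 1.55 for Smug1.

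**Figure D4:**
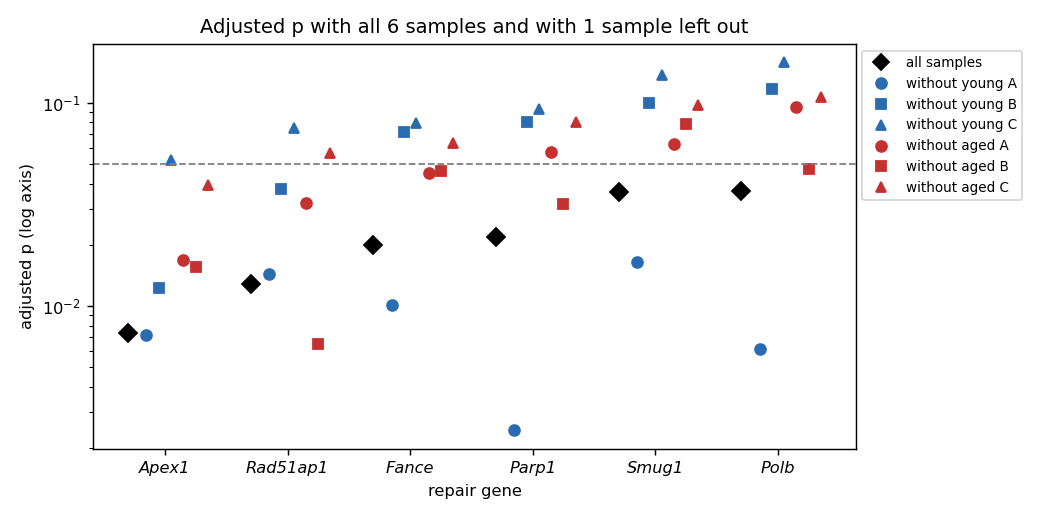
Adjusted p from edgeR (vertical log axis, threshold of 0.05 dashed) of the 6 repair genes that passed, with all 6 samples (diamonds) and with each sample left out (colours for age, shapes for set). Without young set C none of the 6 passes, the nearest being Apex1 at 0.0521, and without young set A all 6 pass.

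Within an age, no sample was uniformly high or low for repair genes. Of the 45 tested genes, young set A was the lowest of its age in 20 and the highest in 12, young set B the highest in 20 and the lowest in 13, and aged set A the lowest in 20 and the highest in 17. Relative to the young mean of each gene on the log2 scale, the median gene stood at -0.05, 0.14 and -0.02 in young sets A, B and C and at -0.43, -0.41 and -0.49 in aged sets A, B and C. For recombination the median gene stood at -0.67, -0.29 and -0.55 in aged sets A, B and C, and for mismatch repair, with 3 genes tested, at -0.26, -0.61 and -0.24. In the same order it stood at -0.362, -0.667 and -0.747 for the Fanconi pathway. For nucleotide excision repair it was -0.027, -0.185 and -0.36, and for base excision repair -0.786, -0.595 and -0.658. Aged set B, the sample with keratinocyte and fibroblast RNA, was the highest aged sample for recombination and the lowest for mismatch repair. Leaving it out moved the median log2 fold change of the recombination genes from -0.44 to -0.70, and without it 5 repair genes were lower with an adjusted p under 0.05, as with all samples, while none was higher in edgeR (14 repair genes had an unadjusted p under 0.05, 11 of them lower).

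Other listed genes of the same pathways, 112 in number with 108 in the table and 100 tested, had a median log2 fold change of -0.32. Of these, 15 fell and 3 rose at an adjusted p under 0.05, beside 7.97% and 9.73% of all genes tested. Among 15 further mismatch repair genes, which include the replication clamp loader and polymerase subunits, 7 fell, with log2 fold changes from -1.88 for Rfc4, a clamp loader subunit (adjusted p = 0.00361), to 0.20 for Pold4, a polymerase delta subunit. For nucleotide excision repair 2 of 20 fell and 1 rose, from -1.18 for Mnat1, which assembles the kinase of the opening complex, to 0.83 for Usp7, a deubiquitinase. In base excision repair 1 of 15 rose, Tdg, the thymine glycosylase, at 0.75, and the lowest was Aplf, a break response factor, at -1.07. Of 14 Fanconi genes 2 fell, and the values ran from -1.89 for Fan1, a nuclease that did not itself pass (edgeR adjusted p = 0.115), to 0.52 for Faap100, a core subunit. Of 36 recombination genes 4 fell and 1 rose. The riser was the helicase Wrn at 0.76 (edgeR adjusted p = 0.048), and those that fell included Rpa1, a subunit of the protein that coats single strands, at -1.10, the nuclease Mus81 at -1.24 and Brcc3, a deubiquitinase, at -0.73, all 4 named after their values were seen. The highest log2 fold change, 0.84 for the nuclease scaffold Slx4, did not pass (edgeR adjusted p = 0.126).

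Genes of cycling cells moved in the same direction as the lower repair genes. Their 30 genes summed to 328, 201 and 301 CPM in young sets A, B and C and to 105, 140 and 108 CPM in aged sets A, B and C, and 18 of 28 tested fell and 1 rose, Mki67 at 1.13; their median log2 fold change was -1.36. The part of cycling cells in the repair gene levels was not tested.

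Lists of markers of other cells were followed in the same way. Erythroid genes summed to 153 to 490 CPM in the young and 41.8 to 152 CPM in aged samples, and 4 of 5 fell. The neutrophil list, of which 12 of 14 genes were in the table and Mpo and Camp were not analysed here, summed to 579 to 1026 CPM in the young and 790 to 1431 CPM in aged samples, and 4 of 11 rose. Monocyte genes summed to 1709 to 3493 CPM in the young and 3656 to 4782 CPM in aged samples, and 1 of 7 rose. Dendritic cell genes summed to 16.6 to 57.7 and 39.8 to 100.3 CPM, ranges that overlap, and none of 6 tested passed in edgeR (2 higher at an unadjusted p under 0.05). Genes of T, NK and B cells summed to 4.69 to 7.19 CPM in young samples, within the 2.16 to 12.3 CPM of aged samples, and 1 of 3 tested fell. Of 5 endothelial genes 3 were tested and 1 rose, Pecam1, which many leukocytes also express, from 8.03 ± 1.82 to 25.9 ± 2.08 CPM (SD, n = 3 each), while Kdr and Vwf had log2 fold changes of -0.40 and -0.38 and did not pass. The part of these cells in the repair gene levels was not tested.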

How the data were processed

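RNA of sorted macrophages was made into libraries with the SMART-Seq v4 kit, which does not mark strand. The authors aligned reads with STAR 2.7.3a to mm10 and quantified Ensembl transcripts in Partek Flow, and they deposited expected counts per gene, not normalised, for genes whose 6 samples add up to 10 or more. Whether counting used strand is not given in the sources used here. A second deposited table, with the authors' own DESeq2 comparison, was not used. The analysis had been planned for raw counts, so the expected counts were rounded to whole numbers.

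Counts were scaled by TMM in edgeR 4.0.16 (R 4.3.3), filtered by filterByExpr (11878 genes kept) and tested by its quasi-likelihood test, aged against young, with Benjamini-Hochberg adjustment over all genes. CPM values use TMM library sizes, apart from the 0.632 CPM of the filter, which uses plain sample totals. With 3 against 3 samples an exact permutation test cannot go below 0.1. The scripts were tested on simulated data. Alternatives were DESeq2 1.42.0 (test, or size factors alone), limma-voom 3.58.1 with sample weights, other count filters, the set letter as a block, a test against a 1.2-fold change, and leaving out each sample.

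Repair genes and lists were chosen with earlier results of these data known. Genes are given in every sample if they passed or had the highest or lowest log2 fold change of a pathway. The gene of each pathway with the highest CPM per kb of GENCODE M21 exons is given in the same way. Rad54l, Palb2, Rad50 and Exo1 are also given in every sample, although they met none of these criteria. Other genes are given by range, single values, counts or log2 fold change. Of the other genes of a pathway, the highest and lowest are named; 1 is not reported here.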

Additional observations from a re-analysis of the deposited data

How the results depend on the processing

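The 6 repair genes that passed kept their direction in every alternative that tested them. With all 6 samples they also kept an adjusted p under 0.05, except that Rad51ap1 was not tested where 10 counts were required in every sample and that Polb and Smug1 were lost in the test against a 1.2-fold change, which asks for a larger change. limma-voom with sample weights gave 7 lower and 3 higher genes with the fold threshold (5.78% and 6.54% of all genes) and 9 lower and 3 higher without it (14.4% and 16.3% of all genes); the cause was not tested. Requiring at least 10 counts in every sample left 33 genes and gave 2 higher, with or without the fold threshold (4.53% and 10.7% of all genes), 10 genes whose aged samples all lay lower (19.5% of all genes), and medians of -0.073 for recombination and -0.39 for the Fanconi pathway; fewer genes were tested there. Against a 1.2-fold change 0 higher genes passed with the fold threshold, beside 4 lower (3.75% and 2.98% of all genes); 15 genes, 13 of them lower, had an unadjusted p under 0.05 there. For mismatch repair the median log2 fold change was -0.15 over the 3 genes tested in edgeR with all samples. It was -0.47 in DESeq2 and -0.48 without a filter, where Exo1 entered.

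Same-letter samples of the 2 ages had correlated deviations of 0.181 for set A, -0.0206 for set B and 0.114 for set C, and young set B and young set C correlated best with another letter, so the letters were not taken as pairs. With the set letter as a replicate block 2 higher genes passed, with or without the fold threshold (4.98% and 10.1% of all genes). In all, 8 genes passed (17.8% of all genes), Ercc6 and Nthl1 being added.

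Leaving out 1 sample at a time gave 0 to 5 lower and 0 to 2 higher genes with the fold threshold, and 0 to 7 lower and 0 to 2 higher without it. Without young set C 0 repair genes passed in edgeR, 11 having an unadjusted p under 0.05, and 218 of all genes passed, beside 2103 with all samples. Without young set B 2 passed (6.29% of all genes), without aged set A 3 (11.3%), without aged set B 5 (12.3%), without aged set C 1 (4.45%), and without young set A 9 (22.3%). Tested repair genes with separate ages, 17 lower and 2 higher with all samples (19.0% and 19.2% of all genes tested), numbered 19 to 23 lower and 2 to 5 higher, where 21.5 to 27.3% and 21.4 to 26.7% of all genes tested were separate. Medians ran from -0.49 to -0.36 for all repair genes, -0.70 to -0.27 for recombination, -0.80 to -0.47 for the Fanconi pathway, -0.62 to -0.086 for mismatch repair, -0.25 to -0.15 for nucleotide excision repair and -0.74 to -0.55 for base excision repair. The log2 fold change of Nbn ran from -0.183 to 0.092, positive without young set B (0.067) and without aged set A, and that of Msh6 from -0.086 to 0.292, negative without young set B and without aged set B (-0.046). Rad52, Xrcc2, Blm, Msh3 and Xpc also changed sign in at least 1 of these fits. Genes under 0.632 CPM were limited by depth, since 1 count is worth up to 0.0701 CPM.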
